A study of Mus musculus with 3 samples.

Results

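Gene expression of long-term haematopoietic stem cells (LT-HSCs) was compared between mice given 8 Gy of total body irradiation (TBI) at CDR and mice left non-irradiated. Every probe set with 1 gene symbol was a member of the comparison, 23185 of 25206 on the array, and the measure was the log2 level on the CDR array minus that on the non-irradiated array. Of these, 352 were variable, joining or constant segments of antibody or T cell receptor loci, which are described apart, and 22833 were other genes. The remaining 2021 probe sets had no symbol and were not used here.

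The animals of both groups were female C57Bl/6 mice aged 8 to 10 weeks, with no transgene or deletion in the labels. From the bone marrow of each group 10000 LT-HSCs were isolated, and total RNA was hybridised to an Affymetrix whole transcript array. The labels give the isolation as 15 days after TBI for every group, the non-irradiated one included. The labels do not spell out CDR, which is read here as conventional dose rate from its general use. The other array of the study held LT-HSCs after 8 Gy given as FLASH, an ultra-high dose rate, and its levels are quoted beside a few genes only. The sources used here name neither the surface markers of the LT-HSC sort nor the number of mice pooled.

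Each group had 1 array. No value below therefore has an error from replicates, no p-value was computed, and "higher" and "lower" describe these arrays and not the treatments. Pairs of log2 levels are given in the order non-irradiated, then CDR, and a difference of 1 on this scale is 2-fold. A level is comparable between arrays for the same gene, not between genes.

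LT-HSCs renew themselves and supply all blood lineages over the life of the animal. Most are quiescent, held out of the cell cycle by transcription factors, growth-inhibitory signals and contact with the marrow niche. TBI kills dividing progenitors and empties the marrow, and surviving stem cells are then drawn into division to rebuild it. During this recovery the expression of stem cell, cell cycle and lineage genes is used to judge the state of the surviving compartment.

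A gene was counted as detected when the array with the higher level read above the 95th percentile of 1363 odorant, vomeronasal and trace amine receptor genes on that array, a level of 4.15 on the non-irradiated and 4.16 on the CDR array. Array medians were 4.66 and 4.62, and 13149 and 13082 genes outside the segments lay above the detection level. The 13 measured Y-linked genes read at most 3.92 on either array, under the detection level, as the female label requires. Among 13291 detected genes outside the segments, 97 (0.73%) stood at least 2-fold above their non-irradiated level after CDR and 221 (1.66%) at least 2-fold below it. Lifting values under the detection level to that level left 86 (0.647%) and 205 (1.54%). Adding 32 on the linear scale before the logarithm, which shrinks differences of dim genes, left 41 and 84. Differences ran from -2.86 to 2.23 with a standard deviation of 0.34 over genes, and 92.2% of detected genes lay within 1.5-fold. The unexpressed receptor genes gave a standard deviation of 0.21, with 1 gene at least 2-fold higher and 3 lower.

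Exact ties between the arrays were common. Of the detected genes 35.3% read the same value on both arrays, 34.9% read higher after CDR by any amount and 29.8% lower. Over all 22833 measured genes outside the segments the shares were 48.4% tied, 26.2% higher and 25.4% lower. Ties made up 56.2% of genes with a mean level between 4 and 5 and 14.5% of those above 10. The cause of the ties was not tested. The median difference over all these genes was 0, and each gene list below is to be read beside that median and these shares. Counts of list members at least 2-fold different are to be read beside 0.73% higher and 1.66% lower among all detected genes.

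The LT-HSC label was set against its defining markers. Procr, the surface protein EPCR, read 7.15 and 5.42. Slamf1, the receptor CD150, read 6.13 and 6.11, Mecom 6.86 and 6.20, Hlf 9.92 and 7.92, Hoxb5 4.75 and 4.56, and Tek, the angiopoietin receptor, 5.80 and 5.15. All these markers lay above the detection level on both arrays. Flt3 and Cd48, which LT-HSCs carry at low levels and later progenitors at high levels, also lay above it on both, at 8.69 and 7.64 for Flt3 and 9.70 and 10.18 for Cd48. Genes of later progenitors were thus measured beside those of stem cells on either array, and fewer cells of a type and less RNA per cell cannot be told apart in such samples.

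The stem cell programme stood lower on the CDR array. Of 62 measured stem cell identity genes 47 read lower, 4 higher and 11 tied, with a median difference of -0.35. Of 58 detected members 9 were at least 2-fold lower and 0 higher, beside 1.66% and 0.73% of all detected genes. The median was -0.35 for surface proteins and receptors, -0.42 for transcription factors and -0.25 for the other members. Every transcription factor of the list was lower or tied.

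Among surface genes the largest differences were those of Trpc6, a cation channel gene, at 7.31 and 5.04 (4.84-fold lower), and Pdzk1ip1, whose product binds PDZ domain proteins, at 8.45 and 6.24. Procr was 3.32-fold lower. Robo4, a guidance receptor that helps to hold stem cells in the marrow, read 6.14 and 5.09. Adgrg1, the adhesion receptor GPR56, read 11.22 and 10.57, and Kit, the receptor for stem cell factor, 10.25 and 9.78. Slamf1 differed by -0.02, and Itga6 and Abcb1a, an integrin and a drug efflux pump gene, were tied at 8.15 and 4.79. Apart from Clca3a1, the surface genes thus ranged from tied to 4.84-fold lower. Clca3a1, a chloride channel regulator gene, was their sole higher member, at 5.52 and 6.21.

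Transcription factors that keep stem cells in reserve were lower by unequal amounts. Hlf, a PAR-bZIP factor of stem cell maintenance, differed most among them, and read 8.02 on the FLASH array. Meis1, a partner of HOX proteins, read 9.62 and 8.36, and Gata3 6.49 and 5.48. Gata2 read 10.04 and 9.11, Tcf15, a marker of quiescent stem cells, 5.51 and 4.68, Erg 9.61 and 9.10, and Prdm16 5.80 and 5.49. Within the wider core factor list 20 of 32 members were lower, 5 higher and 7 tied, with a median of -0.11, and 2 of 31 detected members were at least 2-fold lower. Those were Mycn, at 7.04 and 5.95, and Ets1, at 7.28 and 6.26. Higher members included Gfi1, at 6.35 and 6.91, and Cebpa, which drives granulocyte commitment, at 7.72 and 8.15. Myb and Ikzf1 were tied at 11.01 and 9.27.

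Further members of the stem cell list included Mmrn1, a platelet and endothelial matrix protein gene, at 7.17 and 5.22 (3.88-fold lower), and Txnip, an inhibitor of thioredoxin that restrains glucose uptake, at 10.50 and 9.31. Mllt3, a chromatin reader of stem cell maintenance, read 7.59 and 7.13. Vldlr, Tgm2 and Rbpms differed by -0.90, -0.84 and -0.83. Gda, guanine deaminase, ran the other way at 6.80 and 7.78. Gda is also listed among genes described as higher in aged stem cells, a list of 29 measured genes with 13 lower, 7 higher and a median of 0. In that list Dhrs3 read 8.49 and 7.43 and Lsp1 9.37 and 8.32, while Mt1, a metallothionein that binds zinc and copper, read 10.73 and 11.91.

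**Figure D1:**
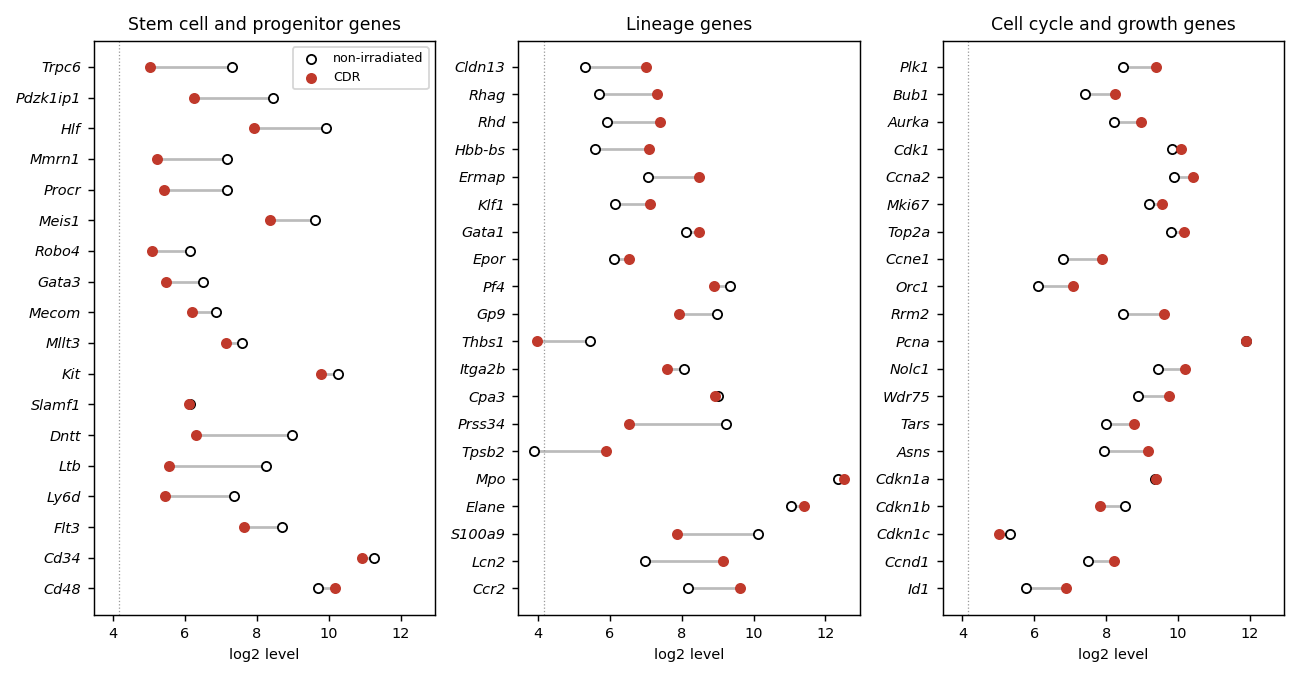
Log2 levels of stem cell and progenitor genes, lineage genes and cell cycle and growth genes on the non-irradiated array (open circles) and the CDR array (red), 1 array each; the dotted line marks the detection level. Hlf moved from 9.92 to 7.92 and Dntt from 8.99 to 6.30, while Slamf1, Pcna and Cdkn1a each read within 0.05 of the same level on both arrays and erythroid genes such as Rhag lay to the right after CDR.

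Genes of early lymphoid priming were lower too. Of 26 measured genes of multipotent and lymphoid-primed progenitors 19 read lower, 4 higher and 3 tied, with a median of -0.27, and 4 of 21 detected members were at least 2-fold lower. Ltb, the TNF family cytokine lymphotoxin beta, read 8.25 and 5.56 (6.44-fold lower). Dntt, the polymerase that adds bases at receptor gene joints in lymphoid precursors, read 8.99 and 6.30 (6.42-fold lower). Ly6d, a marker of lymphoid commitment, read 7.35 and 5.44, and Flt3, the cytokine receptor of multipotent progenitors, was 2.07-fold lower. Cd27 read 10.13 and 9.13, Sox4 9.37 and 8.45 and Satb1, a chromatin organiser, 7.32 and 6.71. The recombinase gene Rag1 was not detected on either array, and Rag2 read 4.26 and 3.85, at least 1.07-fold lower. Cd48 was the exception in this list, 1.39-fold higher.

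Later B cell genes read lower in 13 of 28 cases, higher in 4 and tied in 11. Of the list 20 were detected, 2 of them at least 2-fold lower, and the list median was 0. Cd72, a B cell coreceptor, read 7.70 and 6.65, and Pou2af1, the coactivator OBF-1, 5.67 and 4.65. Igll1, part of the surrogate light chain, read 6.10 and 5.47. Cd79a and Cd79b, the signalling chains of the B cell receptor, read 5.39 and 4.83, and 9.04 and 8.58. Pax5 was tied at 5.07 and Ms4a1, which encodes CD20, read 2.55 on both arrays, under detection. Of 16 genes of antibody-secreting cells 5 were higher, 7 lower and 4 tied, with a median of 0, and 3 of 15 detected were at least 2-fold lower. Jchain, the joining chain of secreted IgM and IgA, read 9.79 and 7.65 (4.40-fold lower), with 9.37 on the FLASH array. Mzb1, a chaperone of antibody secretion, read 6.50 and 5.22, and Pou2af1 is in this list too. The higher members included Creld2, Edem1 and Fkbp11, genes of the endoplasmic reticulum, at 0.62, 0.56 and 0.42. Prdm1, the master factor of plasma cells, lay under detection at 3.76 on both arrays, and Tnfrsf17 read 4.46 and 4.05.

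T cell genes outside the segments had a median of 0 over 21. Of 12 detected members 1, Gata3, was at least 2-fold lower, beside 1.66% of all detected genes. Lat, an adaptor of T cell receptor signalling, read 8.35 and 7.54 and Cd28 5.40 and 4.68. The CD3 chain genes Cd3e, Cd3d and Cd3g lay under detection on both arrays, at 3.10 and 3.10, 3.73 and 3.73, and 2.99 and 2.87. Cd247, the CD3 zeta chain gene, was tied at 5.04. Cd8a lay just above detection on both arrays, at 4.25 and 4.37. Cd4 read 4.36 and 3.73, the latter under detection, so it was at least 1.15-fold lower. Of 14 detected NK and innate lymphoid genes 3 were at least 2-fold lower and 0 higher, beside 1.66% and 0.73% of all detected genes. Rora read 5.83 and 4.56 and Ccl5, a chemokine of activated lymphocytes, 8.14 and 7.03, beside Gata3. The receptor gene Ncr1, which marks NK cells, was tied at 4.43.

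All 8 measured Gimap genes, which encode immune-associated GTPases of lymphocyte survival, read lower after CDR. Their median was -0.50, the lowest of the 53 lists, next to -0.49 for immediate early genes. This rank depended on the processing. Immediate early genes stood lower with cyclic loess, at -0.52 against -0.50, and with an offset of 32, at -0.43 against -0.29. Gimap6 read 9.19 and 7.14 (4.15-fold lower), Gimap1 6.69 and 5.56, and Gimap5 5.29 and 3.71, at least 2.19-fold lower. Gimap8 differed least, by -0.11. The X-linked Bex and Tceal adaptor genes had a median of -0.23 over 12 members. Bex1 read 8.35 and 5.58 (6.85-fold lower) and Tceal1 5.86 and 3.84, at least 3.24-fold lower, while Bex4 went the other way at 5.22 and 5.86. Family members thus ranged from strongly lower to moderately higher.

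Immediate early genes are switched on within minutes of growth factor or stress signals and encode short-lived factors and their feedback inhibitors. Of 35 measured members 25 were lower after CDR, 6 higher and 4 tied, with a median of -0.49. Of 34 detected members 8 were at least 2-fold lower and 0 higher, beside 1.66% and 0.73% of all detected genes. Nr4a1, an orphan nuclear receptor, read 10.03 and 8.07 (3.91-fold lower) and Egr1, a zinc finger factor that restrains stem cell division, 10.64 and 8.94 (3.24-fold lower). Fos read 10.77 and 9.72, Jun 11.16 and 10.21, and Jund 8.27 and 7.24. Klf2, a factor of quiescence in lymphocytes, read 8.50 and 7.30. Ier2 read 10.36 and 9.10, the antiproliferative gene Btg2 9.95 and 8.87, and the phosphatase genes Dusp2 and Dusp1 8.84 and 7.81, and 11.05 and 10.30.

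Among the 15 feedback genes of the list 11 were lower and 4 higher, with a median of -0.55. Of the higher ones Nfkbia, the inhibitor of NF-kB, read 8.88 and 9.33, and Tnfaip3, which encodes A20, 6.94 and 7.43. Gadd45b read 6.92 and 7.22. Egr2, Egr3 and Maff were tied at 4.84, 5.13 and 6.86. Promoters of the list were searched for the core of the serum response element, CCATATTA, and for the cyclic AMP response element, TGACGTCA, on both strands in the 300 bases around each gene start. The former was in 0 of 37 promoters, against 0.323% of all 32851 promoters in the RefSeq table of build GRCm38.p6. With so rare a match, 0 of 37 cannot tell the list from other promoters. Other spellings of the serum response element were not searched, so its absence cannot be read from this count. The cyclic AMP response element was in 4 of 37 (10.8%), against 1.79% of all. The window before the start of Btg2 is shown because it holds the element and the gene is among the 8 lower ones. Capitals mark the element, 166 bases before the gene start.
Btg2 (chr1:134079156-134079405, minus strand): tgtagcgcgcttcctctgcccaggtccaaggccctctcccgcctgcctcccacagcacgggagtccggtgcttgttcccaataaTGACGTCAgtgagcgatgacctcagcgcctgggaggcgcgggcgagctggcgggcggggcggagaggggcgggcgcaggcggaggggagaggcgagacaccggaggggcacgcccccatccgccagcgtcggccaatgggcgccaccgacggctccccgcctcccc

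Mitotic genes were higher on the CDR array by small amounts and in the same direction. Of 77 measured genes, all detected, 72 read higher, 0 lower and 5 tied, against 34.9% higher, 29.8% lower and 35.3% tied among all detected genes. The median difference was 0.37 (1.29-fold), and 0 members were 2-fold different. By role the median was 0.41 for kinases and their partners, 0.33 for cyclins and the anaphase-promoting complex, 0.39 for kinesins, spindle and cytokinesis genes, and 0.34 for kinetochore, condensin and chromatin genes. Each role thus shared the shift.

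Plk1, the polo kinase of mitotic entry, read 8.47 and 9.38 (1.88-fold higher), the checkpoint kinase gene Bub1 7.42 and 8.24, and Aurka, a spindle pole kinase gene, 8.22 and 8.97. Aurkb, its partner at the centromere, read 9.33 and 10.04. Ccna2, cyclin A2, read 9.88 and 10.41 and Espl1, separase, which cuts cohesin at anaphase, 6.65 and 7.35. Cenpe, a kinetochore motor gene, read 7.19 and 7.98 and Ncapg, a condensin subunit gene, 7.10 and 7.83. Mki67, the proliferation marker, was 1.29-fold higher at 9.18 and 9.55. Top2a, the topoisomerase that untangles sister DNA, read 9.81 and 10.15, and Cdk1 9.82 and 10.07. These genes were well above detection on the non-irradiated array as well. Pttg1, Cdc25b and Nusap1 were tied at 8.48, 6.36 and 8.93.

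Mitotic promoters are known to carry the cell cycle homology region, TTTGAA, and CCAAT boxes. In the 300 bases around the gene start, on either strand, TTTGAA was in 49 of 72 promoters of the list (68.1%), against 17.9% of all promoters. CCAAT was in 50 of 72 (69.4%), against 37.4% of all. Ncapg and Depdc1a, the latter at 5.62 and 6.33, are shown because they had the largest differences among list members with a match of both kinds in the 250 bases before the start. Capitals mark the matches, written ATTGG or TTCAAA where they lie on the opposite strand. In Ncapg they begin 176 and 30 bases before the start, and in Depdc1a 39 and 16.
Ncapg (chr5:45669675-45669924, plus strand): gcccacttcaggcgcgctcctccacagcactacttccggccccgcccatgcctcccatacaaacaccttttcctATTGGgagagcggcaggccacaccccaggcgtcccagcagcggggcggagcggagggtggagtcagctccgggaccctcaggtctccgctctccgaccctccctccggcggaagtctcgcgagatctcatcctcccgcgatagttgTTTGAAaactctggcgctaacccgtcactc
Depdc1a (chr3:159495183-159495432, plus strand): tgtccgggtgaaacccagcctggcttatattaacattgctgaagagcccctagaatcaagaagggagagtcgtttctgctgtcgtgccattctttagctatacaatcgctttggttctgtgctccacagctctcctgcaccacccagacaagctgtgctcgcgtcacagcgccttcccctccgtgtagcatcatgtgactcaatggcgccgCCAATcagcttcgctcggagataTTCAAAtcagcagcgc

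DNA replication genes followed with a smaller shift. Of 85 measured genes, all detected, 74 read higher, 5 lower and 6 tied, with a median of 0.20, and 3 were at least 2-fold higher. Those were Pnp2, a purine nucleoside phosphorylase, at 4.73 and 6.58, Rrm2, the regulated subunit of ribonucleotide reductase, at 8.48 and 9.59 (2.17-fold), and Ccne1, cyclin E1, at 6.79 and 7.88. Pnp2 has a near copy in Pnp, at 4.93 and 5.28, and reads of such copies may not be separable by probes. Mybl2, the B-Myb factor that works with mitotic promoters, read 7.64 and 8.59 and Orc1, which marks replication origins, 6.10 and 7.08. Mcm10 read 7.05 and 7.72. The folate enzyme gene Mthfd2 read 6.50 and 7.44 and Mthfd1 8.33 and 8.97.

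Polymerase and fork genes read higher in 26 of 29 cases, lower in 2 and tied in 1, by small amounts. Pcna, the sliding clamp, read 11.87 and 11.89, and Mcm6, of the licensing role, was tied at 10.13. The median was 0.12 for polymerases and fork proteins, 0.18 for cyclins and E2F genes, 0.26 for origin licensing and firing and 0.32 for nucleotide supply. E2F sites, spelled TTTCCCGC, TTTGGCGC, TTTCGCGC or TTTGCCGC and searched on both strands, were in 27 of 87 promoters of the list (31.0%), in 8.33% of mitotic promoters and in 2.26% of all. The Orc1 window is shown because the gene had the largest difference among list members with a site before the start, here at 27 bases. The capitals give the site as it reads on the opposite strand.
Orc1 (chr4:108579204-108579453, plus strand): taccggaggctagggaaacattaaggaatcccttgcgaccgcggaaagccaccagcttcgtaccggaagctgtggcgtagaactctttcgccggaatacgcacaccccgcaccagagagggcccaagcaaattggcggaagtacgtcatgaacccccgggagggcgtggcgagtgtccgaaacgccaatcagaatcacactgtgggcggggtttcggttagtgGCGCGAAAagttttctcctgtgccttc

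**Figure D2:**
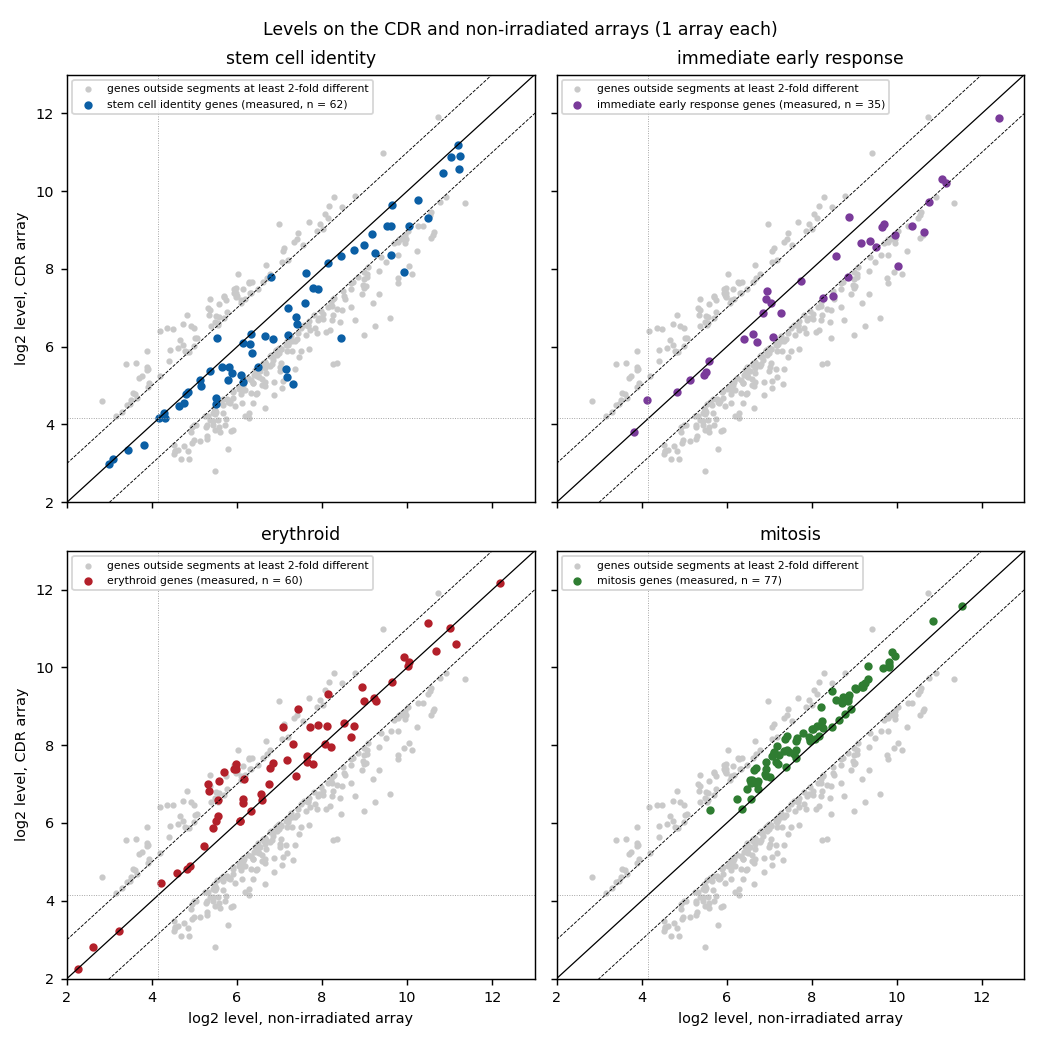
Log2 levels on the CDR array against the non-irradiated array for 4 gene lists (coloured, all measured members) over the detected genes at least 2-fold different (grey); the solid line is equality, the dashed lines 2-fold and the dotted lines the detection levels. Of the mitotic genes 72 of 77 lay above the line of equality and of the stem cell identity genes 47 of 62 below it.

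Genes that restrain division went both ways. Of 36 measured cell cycle inhibitor and quiescence genes 18 were lower, 10 higher and 8 tied, with a median of -0.02 that turned to 0.04 under median centring. Among the inhibitors of cyclin-dependent kinases, Cdkn1b, p27, read 8.51 and 7.82 and Cdkn1a, p21, 9.34 and 9.39. Cdkn1c, p57, differed by -0.33. Cdkn2a, the senescence inhibitor gene, was tied at 4.17, near detection. Txnip, Btg1 and Tob1, all brakes on proliferation, differed by -1.18, -0.85 and -0.72. Smad7 read 8.03 and 7.35 and Tgfbr2, a receptor for the growth inhibitor TGF-beta, 7.08 and 6.49. Id1, a helix-loop-helix inhibitor raised when stem cells are activated, was the sole member at least 2-fold higher, at 5.76 and 6.89. Ccnd1, cyclin D1, read 7.50 and 8.21.

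At 15 days the p53 target list was balanced. Of 50 measured genes 17 were higher, 17 lower and 16 tied, with a median of 0. Beside 1.66% of all detected genes, 3 of the 45 detected list members were at least 2-fold lower. Those were Ddit4, an inhibitor of mTOR, at 7.67 and 6.56, Plk2 at 6.17 and 5.08, and Btg2, which also stands in the immediate early list. The classical radiation-response genes differed little, with Cdkn1a at 0.05, Mdm2, the ubiquitin ligase of p53, at -0.06 and Ccng1 at 0. Bbc3, which encodes PUMA, was tied at 4.93. The death genes Pmaip1, NOXA, and Bid read 5.57 and 6.28, and 7.11 and 7.84.

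The medians of the DNA repair lists lay close to that of all genes, but more members read higher than lower. For recombination repair and the Fanconi pathway the median was 0.05, with 23 of 37 genes higher, 4 lower and 10 tied. Among all detected genes 34.9% were higher and 29.8% lower. The recombination genes alone had a median of 0.18, with 16 of 22 higher and 3 lower, and the Fanconi genes a median of 0. Gen1, a resolvase of recombination junctions, was the member at least 2-fold higher, at 6.29 and 7.64, and Faap24 read 7.44 and 8.30. Brca1 read 7.11 and 7.40 and Fancd2 6.68 and 7.08. End joining and damage signalling genes had a median of 0.03, with 17 of 33 higher, 3 lower and 13 tied. Dntt, which edits junctions in lymphoid cells, was the sole member at least 2-fold different. Prkdc and Atm were tied at 6.46 and 6.98. In the BCL2 family Bcl2a1b, a survival member with near-identical gene copies, was higher by 1.38 and Bcl2 read 9.13 and 8.86, with a family median of 0.

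Genes of ribosome assembly and protein synthesis were higher nearly throughout. Of 57 ribosome biogenesis genes 56 read higher and 1 lower, with a median of 0.31, and 0 were 2-fold different. Wdr75, a factor of rRNA transcription and processing, read 8.87 and 9.75, Nolc1, a nucleolar chaperone, 9.45 and 10.20, and Polr1b, a subunit of RNA polymerase I, 7.67 and 8.03. Noc4l, Utp4 and Rrp12 differed by 0.79, 0.76 and 0.75. Polr1c was the lower one, at 9.74 on both arrays when rounded. Myc itself, which drives this programme, was tied at 10.64, while Mycn was lower. Among its growth targets Slc7a5, an amino acid transporter, read 9.95 and 10.84 and Srm, spermidine synthase, 9.90 and 10.54.

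Of 19 aminoacyl-tRNA synthetase genes, whose enzymes load amino acids onto tRNA, 18 read higher, 0 lower and 1 tied. Their median of 0.39 was the highest of the 53 lists, next to 0.37 for mitosis. With cyclic loess mitosis stood higher, at 0.350 against 0.345. Tars, for threonine, read 8.00 and 8.78, Aars, for alanine, 7.66 and 8.37, and Gars, for glycine, 9.24 and 9.94, and Qars was tied at 7.39. ATF4, the factor of amino acid shortage, activates many of these genes. In the ATF4 response list the amino acid enzymes and transporters had a median of 0.11, with 10 of 17 higher and 1 lower. Asns, asparagine synthetase, read 7.94 and 9.15 (2.32-fold higher), Psat1, of serine synthesis, 7.86 and 8.48, and Slc7a1 7.76 and 8.51. The stress factors of the list had a median of 0, with Atf4 at -0.01, Ddit3, CHOP, tied at 8.01, and Ppp1r15a, GADD34, at 9.51 and 8.57. The list thus split by role.

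The amino acid response element, TGATGNAAN, was in 5 of 12 synthetase promoters (41.7%) and in 10 of 40 promoters of the ATF4 list , against 3.95% of all. The Asns and Tars windows are shown because these genes had the largest difference of their lists among those with a match. The element begins 23 and 16 bases before the start, and in Tars it lies on the opposite strand.
Asns (chr6:7693210-7693459, minus strand): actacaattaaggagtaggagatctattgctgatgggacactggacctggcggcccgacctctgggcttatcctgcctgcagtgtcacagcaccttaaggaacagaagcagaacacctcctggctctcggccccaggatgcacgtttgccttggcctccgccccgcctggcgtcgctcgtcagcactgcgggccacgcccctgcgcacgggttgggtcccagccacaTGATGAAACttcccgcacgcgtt
Tars (chr15:11399659-11399908, minus strand): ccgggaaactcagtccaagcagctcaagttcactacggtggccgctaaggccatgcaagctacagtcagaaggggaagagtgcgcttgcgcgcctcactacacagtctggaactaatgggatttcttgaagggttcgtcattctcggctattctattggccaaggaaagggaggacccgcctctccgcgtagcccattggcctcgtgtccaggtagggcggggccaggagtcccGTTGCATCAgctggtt

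Protein folding and turnover genes were shifted in the same direction. Of 23 endoplasmic reticulum stress genes 18 read higher, 2 lower and 3 tied, with a median of 0.28. Ero1a, an oxidase that forms disulphide bonds, read 7.87 and 8.98, Sdf2l1 8.97 and 9.64 and Hspa5, the chaperone BiP, 10.93 and 11.12. Dnajb9, a cochaperone, lay on the other side at 9.04 and 8.42. Of 32 proteasome genes 25 were higher, 3 lower and 4 tied, with a median of 0.24, led by Psmd6 at 9.27 and 9.83. The lower ones included Psme2, a subunit of the interferon-induced cap, at -0.32. In the heat shock list 21 of 28 were higher and the median was 0.16. Hspd1, of mitochondria, read 11.20 and 11.76.

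Among energy genes, 27 of 34 nuclear genes of oxidative phosphorylation were higher, 0 lower and 7 tied, with a median of 0.11. Cox7b was the sole member at least 2-fold higher, at 4.78 and 5.89. Ndufab1 read 7.04 and 7.91 and Cyc1 9.18 and 9.64. The median for glycolysis and hypoxia genes was 0, and 3 of 32 detected lay at least 2-fold lower. Those were Ldhb, a lactate dehydrogenase subunit, at 8.68 and 7.02, Aldoc, an aldolase, at 6.47 and 5.25, and Ndrg1 at 9.08 and 8.05. Ldha, the other main subunit of lactate dehydrogenase, read 10.26 and 10.62, and Pfkp, a phosphofructokinase, 7.54 and 8.02. The antioxidant list had a median of 0.03, and its 2 members at least 2-fold higher were the metallothionein genes Mt1 and Mt2, the latter at 9.42 and 10.98. Lysosome and autophagy genes had a median of 0, with Gabarapl1 at 8.92 and 8.24 and Ctsz, a cathepsin, at 8.86 and 9.68. Cholesterol and fatty acid genes had 0 members 2-fold different.

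**Figure D3:**
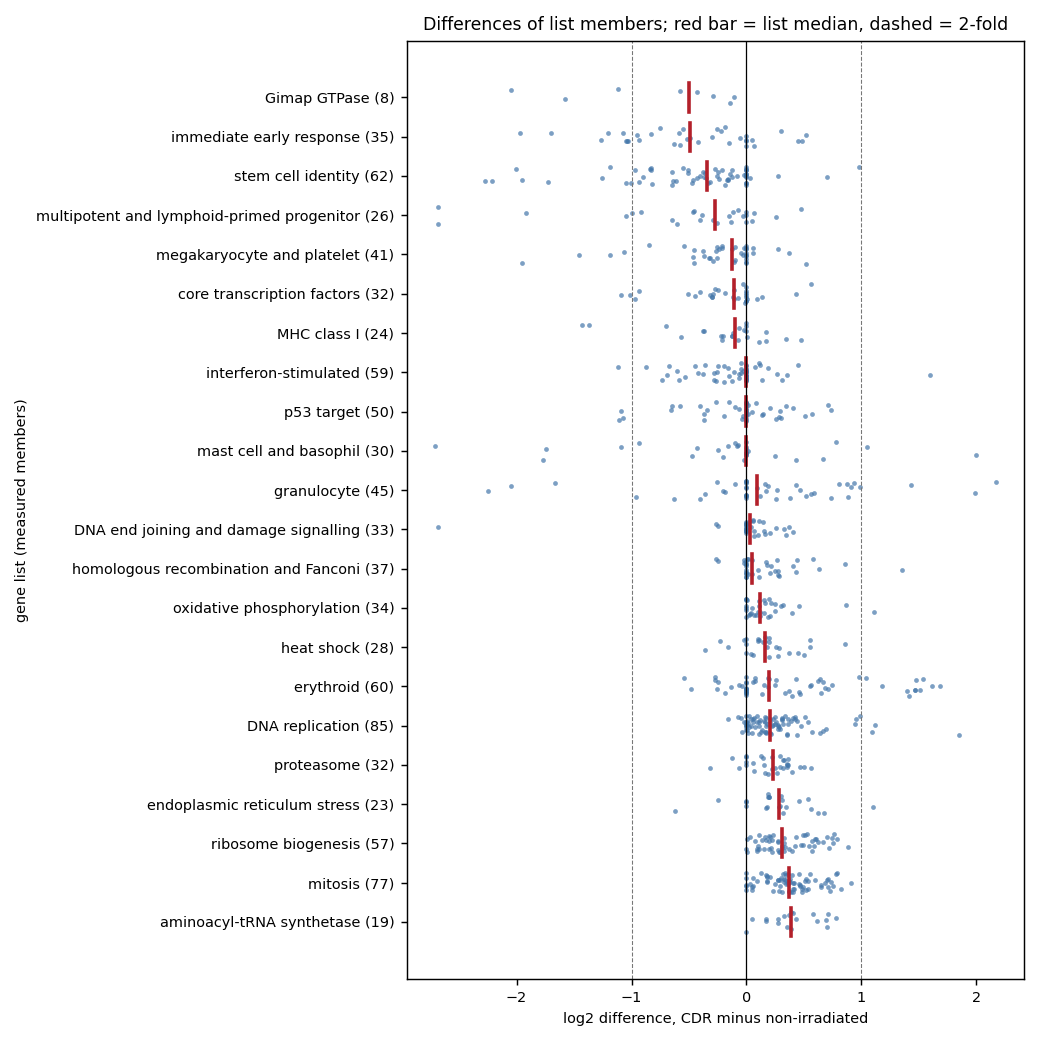
Log2 difference, CDR minus non-irradiated, of each measured member (points) of 22 gene lists, with the list median as a red bar and 2-fold as dashed lines; the number of members stands in brackets. Medians ran from -0.50 for Gimap genes to 0.39 for aminoacyl-tRNA synthetase genes, with mitosis at 0.37 and stem cell identity at -0.35.

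Red cell genes were the lineage list with the most members at least 2-fold higher. Of 60 measured erythroid genes 37 were higher, 10 lower and 13 tied, with a median of 0.19. Of 57 detected, 11 were at least 2-fold higher and 0 lower, beside 0.73% of all detected genes. The membrane and skeleton genes gave 6 of these, with a median of 0.71 over 13 members. Cldn13, a claudin of erythroblasts, was 3.21-fold higher, Rhag and Rhd, of the Rh complex, 5.70 and 7.32, and 5.93 and 7.39. Ank1, ankyrin, which ties the skeleton to the membrane, read 5.35 and 6.81, and Ermap 7.07 and 8.47. Epb42, of the same skeleton, lay under detection at 3.23 on both arrays.

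Haem synthesis genes were higher in 8 of 9 cases and tied in 1, with a median of 0.26, led by Cpox at 7.91 and 8.53 and Fech, ferrochelatase, at 7.17 and 7.63. Tfrc, the transferrin receptor that brings in iron, read 8.13 and 9.31. Hbb-bs, adult beta globin, read 5.58 and 7.09, while the embryonic globin genes Hbb-y and Hbb-bh1 were not detected. Sphk1, sphingosine kinase, read 5.98 and 7.51, and Pklr, the red cell pyruvate kinase gene, 5.98 and 7.39. The factors of the lineage had a median of 0. Klf1, of late red cell differentiation, read 6.15 and 7.13, Gata1 8.11 and 8.48 and Epor, the erythropoietin receptor, 6.13 and 6.52, whereas Nfe2 read 11.14 and 10.60 and Gfi1b was tied at 9.64. By role, the 11 genes at least 2-fold higher were 6 of the membrane, 3 enzymes and others, 1 globin and 1 of receptors and iron, with 0 of haem synthesis.

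The GATA site, AGATAA, was in 18 of 62 erythroid promoters (29.0%) and in 17.1% of megakaryocyte promoters, against 11.2% of all. The Sphk1 window is shown because its gene had the largest difference of the list with a match in the window. Capitals mark the site on the opposite strand, 124 bases before the start.
Sphk1 (chr11:116532194-116532443, plus strand): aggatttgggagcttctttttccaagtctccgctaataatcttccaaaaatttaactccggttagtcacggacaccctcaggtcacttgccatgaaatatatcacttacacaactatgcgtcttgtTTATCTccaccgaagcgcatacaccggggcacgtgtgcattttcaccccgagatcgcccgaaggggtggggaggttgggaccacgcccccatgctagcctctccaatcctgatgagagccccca

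Megakaryocyte and platelet genes, which stem cells also express in part, lay on the lower side. Of 41 measured members 27 were lower, 5 higher and 9 tied, with a median of -0.12, and 4 of 38 detected were at least 2-fold lower. Those were Mmrn1, Thbs1, thrombospondin, at 5.44 and 3.99 (at least 2.43-fold lower), Angpt1, a niche factor also made by stem cells, at 9.97 and 8.78, and Gp9, of the von Willebrand factor receptor, at 8.99 and 7.93. Pf4, platelet factor 4, read 9.35 and 8.90 and Itga2b, CD41, 8.05 and 7.58. Gp5, of the same receptor as Gp9, was tied at 7.80. F13a1, a clotting factor also made by monocytes, read 7.77 and 8.28.

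Mast cell and basophil genes split. Of 30 measured genes 14 were lower, 7 higher and 9 tied, with 4 of 23 detected at least 2-fold lower and 2 higher. The 4 lower ones included Ccl3 and Ccl4, chemokine genes that also stand in the inflammation list. Prss34, a basophil protease, read 9.25 and 6.53 (6.55-fold lower), with 7.87 on the FLASH array. Tpsb2, a mast cell tryptase, read 3.89 and 5.89, at least 3.34-fold higher, and Mcpt4 3.47 and 4.52, at least 1.29-fold higher. Cpa3, the mast cell carboxypeptidase, differed by -0.09 and Mcpt8, of basophils, was tied at 8.98. Prg2, a granule protein of eosinophils and mast cells, read 10.56 and 9.47, and Epx, of eosinophils, 6.14 and 5.98.

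Granulocyte genes split by granule type. All 8 primary granule genes, made at the promyelocyte stage, read higher, with a median of 0.63. Ms4a3 read 10.47 and 11.35, Prtn3, proteinase 3, 11.38 and 11.85, Elane, neutrophil elastase, 11.03 and 11.41 and Mpo 12.36 and 12.52. Genes of later granules had a median of 0, with 4 of 14 higher and 6 lower. Lcn2, an iron-trapping protein, read 6.97 and 9.15 (4.52-fold higher), while Camp, cathelicidin, read 5.90 and 3.86 (at least 3.34-fold lower) and Ngp 6.47 and 4.81. S100a9, a calcium-binding protein abundant in neutrophils, read 10.12 and 7.87 (4.75-fold lower), although S100a8, its partner in the same complex, read 10.02 and 9.82. Trem3 and Clec5a, myeloid surface receptors, read 6.67 and 8.10, and 4.83 and 6.81. Granulocyte transcription factors had a median of 0.10, with 5 of 9 higher, 3 tied and Runx1 lower at -0.41, and Cebpe, the factor of late granules, read 6.61 and 7.49. Ly6g, of mature neutrophils, was not detected.

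For monocyte and macrophage genes the median was 0. Of 36 detected, 1 was 2-fold or more higher and 1 lower, beside 0.73% and 1.66% of all detected genes. Ccr2, the receptor that brings monocytes out of the marrow, read 8.17 and 9.62, and Wfdc17 8.18 and 6.44. Apoe and Hmox1, macrophage genes of lipid and haem handling, read 10.14 and 9.30, and 8.87 and 7.99. Csf1r read 6.36 and 6.59 and Adgre1, a macrophage surface receptor, was tied at 4.17. Type 1 and general dendritic cell genes had 5 of 18 detected members 2-fold or more above the non-irradiated level and 1 below, the latter being Flt3. Ifi205, Gpr141b and Plbd1 read 3.88 and 5.48, 3.92 and 5.42, and 6.27 and 7.68. Xcr1, the chemokine receptor of this cell type, read 4.20 and 5.24 and Clec9a 4.23 and 5.18. Their non-irradiated levels lay close to the detection level of 4.15. Batf3, another dendritic cell gene, was tied at 4.62. Of the 20 measured type 1 and general genes 11 were higher, 2 lower and 7 tied, with a median of 0.21. Ly6d and Tlr7 were the plasmacytoid members counted as 2-fold lower on the deposited levels. Tlr7 read 4.52 and 3.23, the latter under detection, so it was at least 1.28-fold lower. Siglech was not detected.

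Of 11 MHC class II genes 5 were higher, 5 lower and 1 tied, with a median of 0. The peptide-presenting chains H2-Eb1 and H2-Aa read 6.61 and 7.66, and 7.77 and 8.44, with H2-Ab1 at 9.13 and 9.45 and Cd74, the invariant chain, at 8.68 and 9.15. The loading regulators H2-Ob, H2-Oa, H2-DMb1 and H2-DMa read 6.20 and 4.88, 8.05 and 7.17, 7.91 and 7.08, and 10.21 and 9.63. H2-DMb2 read 6.69 and 6.27, Ciita, the activator of these genes, 5.42 and 5.51, and the chain gene H2-Eb2 was not detected. This order by role was made after the values were seen. In class I, 15 of 24 genes were lower, 6 higher and 3 tied, with a median of -0.10. The nonclassical genes H2-T23 and H2-Q7, at 8.25 and 6.82, and 8.96 and 7.59, were the 2 at least 2-fold lower, while the classical H2-K1 and H2-D1 read 10.52 and 10.39, and 12.51 and 12.39.

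Interferon-stimulated genes leaned lower, with 31 of 59 lower, 10 higher and 18 tied. Their median was -0.01 and turned to 0.05 under median centring. Rsad2, viperin, read 5.76 and 4.64, Gbp2 6.53 and 5.66 and Ddx58, RIG-I, 7.25 and 6.56. Isg15 was tied at 5.21. The sole member at least 2-fold higher was Ifi205, which also stands in the dendritic cell list. Against 1.66% of all detected genes, 5 of 24 detected members of the inflammation list were at least 2-fold lower. Besides Ltb they were Ccl3, Ccl4 and Ccl5, chemokines that attract leukocytes, and Il18 at 6.66 and 5.08. Ccl3 read 10.55 and 8.78 and Ccl4 10.62 and 8.87. Tnf ran the other way at 7.36 and 8.13, as did Cxcl10, at 5.82 and 6.42, and Lcn2, the sole member at least 2-fold higher.

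Cytokine receptor genes had a median of 0 and homing and adhesion genes likewise. Csf2rb, the shared beta chain for IL-3 and GM-CSF, read 7.87 and 8.65. F11r, the junctional adhesion molecule JAM-A, read 8.10 and 6.37, and S1pr1, the egress receptor, 6.51 and 5.84. Cxcr4, the receptor that keeps stem cells in the niche, was tied at 9.54. Hox genes differed little, with Hoxa9 at 7.91 and 7.48. Meis1 was their cofactor at least 2-fold lower. Among chromatin regulators 0 of 32 were 2-fold different and Cbx7, a Polycomb reader of self-renewal, read 6.37 and 5.44. Tet2 read 5.73 and 6.20. Phlda2, at 5.59 and 3.80 (at least 2.69-fold lower), led the imprinted genes, whose median was -0.03 and turned to 0.03 under median centring. Dtx4, of the Notch pathway, read 5.38 and 6.53. Timp2 read 6.63 and 5.53 in a senescence and secretory list with a median of 0.

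Markers of niche cells were measured to see what else the sort could hold. Of 19 detected endothelial genes 2 were at least 2-fold lower, Tie1 at 7.36 and 6.14 and Robo4, both also active in stem cells, and the median was -0.12. Cdh5, of endothelial junctions, read 6.05 and 6.18 and Plvap, of sinusoids, 5.63 and 6.17. Of 18 stromal genes 10 lay under detection, among them the stromal markers Lepr at 2.70, Pdgfra at 2.81 and Col1a1 at 4.01 on both arrays. The collagen genes Col1a2, tied at 5.11, and Col3a1, at 4.44 and 4.26, were detected on both. Of the stromal genes 8 were lower, 0 higher and 10 tied, and Angpt1 was the 1 at least 2-fold lower. Cxcl12, the niche chemokine, read 5.93 and 5.44. Housekeeping genes had a median of 0.10, with 11 of 14 higher and 3 lower, and Actb read 12.72 and 12.86. Eef1a1, at 5.37 and 6.02, and Tfrc lay farthest from 0. Cytosolic ribosomal protein genes had a median of 0.08, and 3 of the 29 detected members, Rps15, Rpl13 and Rps2, were counted as 2-fold higher. Rps2 read 3.65 and 4.68, the former under detection, so it was at least 1.44-fold higher. Outside this list of 30, Rps13, at 6.36 and 7.67, and Rpl9, at 5.70 and 6.73, were at least 2-fold higher as well. All these genes belong to families with many pseudogene copies that probes may not tell apart.

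Antibody and T cell receptor segments gave the widest differences on the arrays. After CDR 96 of the 171 detected (56.1%) stood 2-fold or more below their non-irradiated level, 6 (3.51%) stood as far above it, and 83 and 5 once dim values were lifted to that floor. A filter on the mean level of both arrays, at the 99th percentile of the unexpressed receptor genes, left 54 lower ones. By any amount 75.4% were lower, 13.5% higher and 11.1% tied. Segments of a class share sequence, so they are not independent of each other, and probes may read several of them. As background, a B cell rearranges and expresses only a few of its V segments.

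Among 58 detected heavy chain V segments 41 were at least 2-fold lower and 3 higher, and among 60 kappa V segments 38 and 2. The widest difference was that of Igkv10-96, at 11.02 and 2.27 (at least 116-fold lower), with 6.21 on the FLASH array. Ighv9-3 read 9.13 and 2.07 (at least 31.3-fold lower) with 7.11 after FLASH, and Ighv1-9 8.98 and 2.18 with 2.70 after FLASH. Ighv12-3 went the other way, at 4.10 and 7.66 (at least 11.4-fold higher) with 8.16 after FLASH, as did Ighv1-58, at 4.26 and 7.36. Igkv4-74 read 3.76 and 5.93, and Iglv3, of the lambda chain, 5.61 and 7.04. Segments of the same class thus lay far apart on either side of the diagonal.

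Joining and constant segments are shared by many antibodies. Over detected members the median difference was -1.62 for D and J segments and -1.03 for constant regions, beside -1.77 for all antibody V segments. A lower segment counts as detected through its non-irradiated level alone, which deepens these medians. Over all measured members they were -1.57, -0.64 and -0.61 in the same order. All 5 detected antibody joining segments were at least 2-fold lower, among them Ighj1 with a difference of -1.62 and Igkj5 at 11.82 and 9.53. Igkc, the kappa constant region, read 12.55 and 11.82, with 12.46 on the FLASH array. Ighm, of IgM, read 11.83 and 10.49 with 11.64 after FLASH, and Igha, of IgA, 11.31 and 9.95 with 11.21 after FLASH. Ighg2c read 8.84 and 4.34, and 3.61 after FLASH, whereas Ighg1 read 7.51 and 6.96 and Ighg2b 6.78 and 6.45. Ighe and Ighg3 were not detected. The antibody-secreting list, with a median of 0, was beside them 7 lower, 5 higher and 4 tied, from Jchain at -2.14 to Creld2 at 0.62. The B cell list, also with a median of 0, was 13 lower, 4 higher and 11 tied, and the part of either in the segment levels was not tested.

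T cell receptor V, D and J segments mostly lay near equality, with a median of 0. On the deposited levels 3 of 34 detected members were at least 2-fold lower and 0 higher. Those were Trbj1-1, at 5.80 and 3.63 (at least 3.11-fold lower), Trbj2-1 and Trgj1. Trgj1 read 4.30 and 2.22, the latter under detection, so it was at least 1.10-fold lower. Of 5 detected constant regions 4 were counted as at least 2-fold lower on the deposited levels. Trbc1 read 8.68 and 6.64, Trbc2 8.23 and 6.67 and Trgc2, of the gamma chain, 6.44 and 4.52, while Trgc1 read 5.97 and 5.93. Trgc4, the remaining lower one, read 4.84 and 3.84, the latter under detection, so it was at least 1.60-fold lower. Trac, of the alpha chain, was not detected at 3.79 on both arrays.

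**Figure D4:**
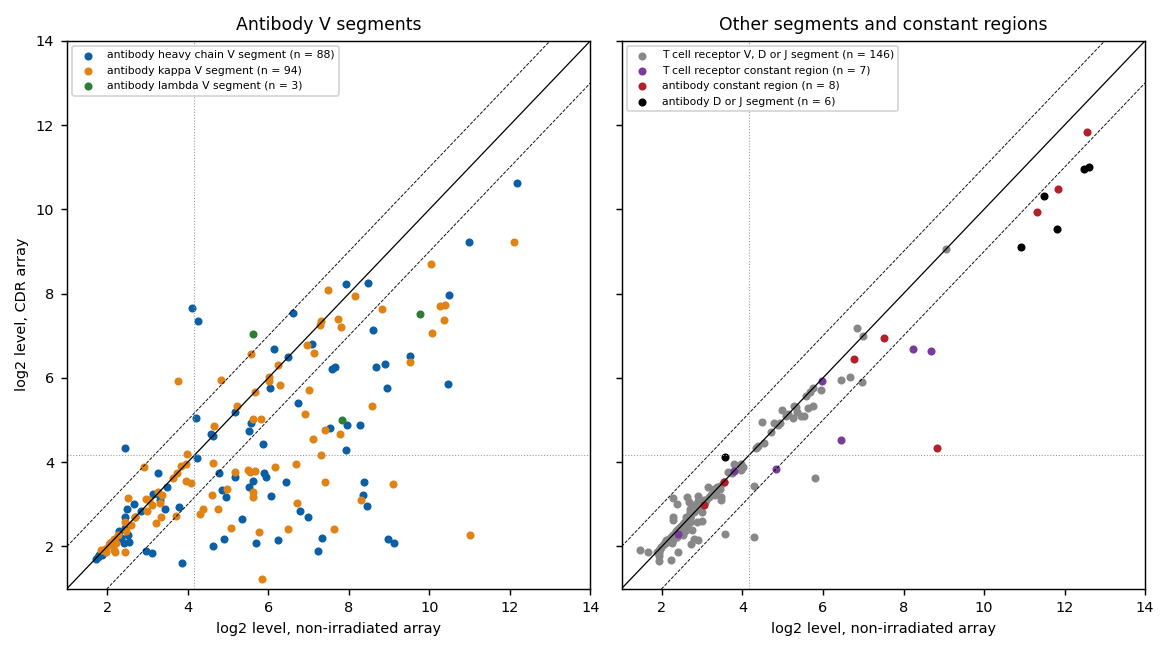
Log2 levels of antibody V segments (left panel) and of T cell receptor segments, antibody D and J segments and constant regions (right panel) on the CDR array against the non-irradiated array; the solid line is equality, the dashed lines 2-fold and the dotted lines the detection levels. Igkv10-96 lay at 11.02 and 2.27, far from the line, and most T cell receptor segments lay near it.

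Small RNA genes were counted by class. Of 85 detected snoRNA genes, which guide rRNA modification, 12 (14.1%) were 2-fold or more higher and 6 (7.06%) as much lower, beside 0.612% and 1.62% of 12256 protein-coding genes. Snord52 read 4.35 and 6.47 and Snora20 4.91 and 6.55, while Snord89 read 8.77 and 6.69 and Snora44 9.78 and 7.76. The snoRNA genes named here were chosen after their values were seen. The difference between the classes was not tested, and whole transcript labelling is not designed for RNAs of this length. Long noncoding RNA genes gave 5 of 594 higher and 9 lower. Asb17os read 4.18 and 6.40, the largest difference toward higher levels of any detected gene outside the segments.

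MicroRNAs are short RNAs that pair with mRNAs through a seed, bases 2 to 8. Of 124 detected miRNA genes 2 (1.61%) were at least 2-fold higher and 2 (1.61%) lower, beside 0.73% and 1.66% of all detected genes, so the share of lower ones lies near the background. The lower ones, Mir20a at 6.59 and 5.03 and Mir19b-1 at 5.66 and 4.51, belong to the miR-17-92 cluster on chromosome 14. This cluster is a target of MYC that favours cell division. Mir17 read 6.51 and 6.13, Mir18 was tied at 5.93 and Mir19a was not detected, at 2.92 and 2.76. The members were chosen after their values were seen, and the probe sets read the miRNA gene, not the mature miRNA. Members that share a transcript thus differed in their reading. Mature sequences of the cluster from RefSeq, build GRCm38.p6, are shown because they fall into seed groups, with the seed in capitals. Mir20a and Mir19b-1 belong to different seed groups.
miR-17-5p (chr14:115043684-115043706, plus strand): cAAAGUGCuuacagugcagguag
miR-20a-5p (chr14:115044183-115044205, plus strand): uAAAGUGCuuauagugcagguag
miR-18a-5p (chr14:115043867-115043889, plus strand): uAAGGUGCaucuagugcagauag
miR-19a-3p (chr14:115044048-115044070, plus strand): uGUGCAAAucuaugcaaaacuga
miR-19b-3p (chr14:115044358-115044380, plus strand): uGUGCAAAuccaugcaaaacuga

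Neighbouring genes differed together at 6 places, taken as at least 3 of 5 consecutive detected genes 2-fold different in the same direction in the RefSeq gene order. On chromosome 11 Ccl5, Ccl3, Ccl4 and Wfdc17 were lower, but Ccl9, at 9.60 and 9.62, and Ccl6 lay among them near 0, and the nearby Wfdc21 read 7.57 and 8.49. On chromosome 6 the run was Gimap6, Gimap1 and Gimap5. On chromosome 9 Cep126, Trpc6 and Pgr were lower, while Yap1 beside them read 6.10 and 6.05. Cep126, at 4.75 and 3.44, and Pgr, at 4.62 and 3.36, lay under detection after CDR. Cep126 was thus at least 1.51-fold and Pgr at least 1.37-fold lower. On chromosome 2 Galnt3, Cers6 and Nostrin were higher, with Cers6, a ceramide synthase, at 7.41 and 8.77. A second place on chromosome 11 held Tnfsf13, its antisense RNA gene Tnfsf13os and Chrnb1 around Polr2a, which read 9.22 and 9.26. The last, on chromosome 14, held 4 predicted genes of a repeated family. Genes named only for their place were chosen after their values were seen.

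**Figure D5:**
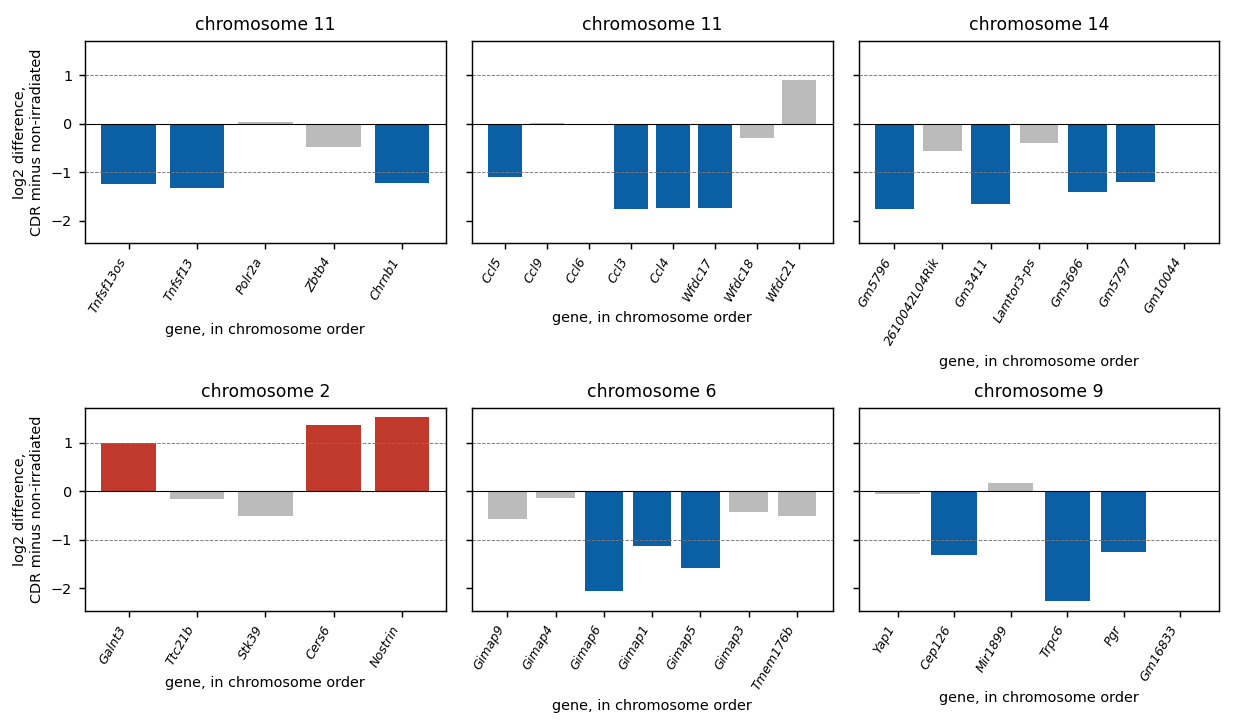
Log2 difference, CDR minus non-irradiated, of consecutive detected genes at the 6 places where at least 3 of 5 neighbours were at least 2-fold different in the same direction; blue bars are at least 2-fold lower, red at least 2-fold higher, grey within 2-fold, and dashed lines mark 2-fold. Ccl9 and Polr2a lie near 0 between lower neighbours.

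The largest differences outside the lists complete the picture. Myl10, a myosin light chain gene, read 9.60 and 6.74 (7.24-fold lower), the lowest difference of any detected gene outside the segments. Apol7e read 5.48 and 2.81, at least 2.50-fold lower, and Rab6b, a Golgi transport GTPase gene, 5.79 and 3.37. Tox, a factor of innate lymphoid and T cell development, read 7.06 and 4.93, Clic5 6.65 and 4.43 and Gng11, a G protein subunit gene, 8.43 and 6.63. Eya2 read 7.69 and 5.95. Toward higher levels, Rbm3, a cold-inducible RNA-binding protein gene, read 3.63 and 5.59, at least 2.72-fold higher, and Tfb2m, of mitochondrial transcription, 3.39 and 5.56. Ccnyl1 read 5.37 and 7.22, Emilin2, a matrix protein gene, 8.28 and 9.85 and Atp1b2, a sodium pump subunit gene, 7.69 and 9.21. List members given as tied or not detected, and those set beside a larger difference for contrast, were in part chosen after their values were seen. Of the 97 higher genes 38 and of the 221 lower genes 63 stood in at least 1 of the 53 lists.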

How the data were processed

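Total RNA of LT-HSCs was labelled with the GeneChip WT sense target kit and read on 1 array a group, per the labels. The values deposited by the authors are log2 levels per probe set, a scale taken from their range, and the submitters' processing notes name Partek. Background correction, summarisation and normalisation are unstated, and values were used without rescaling. Arrays have no read depth, and precision is limited by their number.

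Probe sets were named from the platform annotation where it gave 1 symbol. The log2 difference, CDR minus non-irradiated, was computed for each. Genes at least 2-fold different on the deposited levels were counted among detected genes. A fold is given as "at least" where the dimmer array read under its detection level, which then stood in for the value. Both arrays' groups came from the labels, and 0 columns belonged to other samples. Without replicates no test was run.

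The members and the 53 gene lists were chosen with earlier results of these data known. Of 1640 list genes 1516 were measured. Named genes were the 30 largest differences in each direction, leaving out predicted genes, pseudogenes, small RNA, histone and receptor genes, each list's key genes and up to 6 detected members per role and direction that differed by 0.3 or more, and the constant regions and 5 largest segments per class and direction. Promoters ran from 250 bases before to 50 after each start in the RefSeq table of GRCm38.p6.

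Alternatives were median centring, quantile normalisation, cyclic loess, an offset of 32, other filters on dim genes and fold thresholds of 1.5 and 3. The counting was tested on simulated data. Python 3.11.15, numpy 2.4.6, pandas 2.3.3, matplotlib 3.10.9, R 4.3.3 and limma 3.58.1, for normalisation alone, were used.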

Additional observations from a re-analysis of the deposited data

Results flagged for a closer look

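Among the 2021 probe sets without a symbol, which entered no comparison, 1123 were detected and 13 of them were at least 2-fold higher on the CDR array than on the non-irradiated array, while 24 were at least 2-fold lower.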

How the results depend on the processing

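The 97 higher genes outside the segments became 41 with an offset of 32, 420 at a threshold of 1.5-fold and 16 at 3-fold. The 221 lower ones became 84, 619 and 54 under the same settings. Median centring gave 119 and 182, quantile normalisation 108 and 204, and cyclic loess 95 and 222. Without a filter on dim genes the counts were 108 and 238, and with the stricter filter 70 and 164. Protein-coding genes alone, chosen after seeing the data, gave 75 and 199. Of the segments, the 6 higher ones became 10 at 1.5-fold and the 96 lower ones became 54 with the stricter filter. Of 755 named genes, 0 of those at least 2-fold different turned direction. Counting a turn of any size, cyclic loess turned the sign of 12 named genes. Quantile normalisation turned 12, median centring 12, raising dim values 10 and the offset 0. The offset moved 175 named genes by more than the spread of the unexpressed receptor genes, and raising dim values moved 43. The median turned sign under median centring, which shifts all genes by 0.06, for quiescence, interferon-stimulated and imprinted genes, each within 0.05 of 0. No paired analysis was possible because each group had 1 array, and leaving out a replicate was impossible for the same reason. Identity between near-identical gene copies was not computed, since no protein sequences were used here.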

Other observations

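By chromosome, the genes at least 2-fold different were spread unevenly. On chromosome 15, 17 of 526 detected genes (3.23%) were at least 2-fold lower and 0 higher, and on the X chromosome 13 of 422 (3.08%) were lower and 6 higher, beside 1.66% and 0.73% of all detected genes. Genes with a mean level between 6 and 7 were at least 2-fold higher in 1.28% of cases, and those between 9 and 10 in 0.305%. Chromosome and level were not chosen for comparison in advance, and the differences between them were not tested.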
